A study of Rattus norvegicus with 6 samples.

Results

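Interferon-stimulated genes are the genes that cells switch on when interferon reaches them. They were followed here through the cell classes of the rat cerebral hemisphere after carbon monoxide poisoning. The 49 genes came from a list of known interferon-stimulated genes matched by symbol, and the rule uses no measured value. Of these, 48 are among the 15227 genes of the files, and Ifit1 has no row under that symbol. Cells of 3 control libraries (NC, negative control rats) were compared with cells of 3 libraries from poisoned rats (CO). The CO rats inhaled carbon monoxide at 1000 ppm for 40 minutes and then at 3000 ppm for 20 minutes, and poisoning was accepted with impaired consciousness and carboxyhemoglobin above 60%. The strain, the age and the time between gas and sampling are not given in the sources used here. Tissue was dissociated with enzymes before droplet capture, and both groups went through it.

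Type I interferons, such as interferon beta, bind the receptor pair Ifnar1 and Ifnar2 on nearly every cell type. The Janus kinases Jak1 and Tyk2 then activate a complex that includes Stat2 and Irf9 and binds a short DNA element, the interferon-stimulated response element (ISRE), before its target genes. Interferon gamma acts through Ifngr1 and Ifngr2 and on another element, the gamma-activated site (GAS). In brain, microglia, border macrophages and endothelial cells are known to carry such programs at rest and in injury.

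The element is printed for some members on which the results below turn and whose promoter held a match. Promoter windows of 300 bases, from 250 before to 50 after the gene start, were taken from RefSeq (GRCr8), and 38 members had one. An ISRE match (GAAA, any 2 bases, GAAA, on either strand) was in 25 of 39 member windows (64.1%) and in 3.92% of 33469 windows of all genes. The GAS letters TTCNNNGAA, which read the same on both strands, were in 10 member windows (25.6%) and in 8.87% of all windows. Ifit2 had no window, and that of Mx1 held no ISRE match, so neither is printed although results below turn on both. Capitals mark the ISRE matches, and each stretch is written 5′ to 3′ along the gene's own strand. Ifit3 and Ifi44l were higher in CO microglia, Bst2 and Ifitm3 were lower there, and Gbp2 moved in opposite ways in other classes.
Ifit3: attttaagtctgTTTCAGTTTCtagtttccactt
Ifi44l: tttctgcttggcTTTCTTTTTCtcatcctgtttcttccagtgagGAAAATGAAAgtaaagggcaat
Bst2: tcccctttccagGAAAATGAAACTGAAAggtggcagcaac
Ifitm3: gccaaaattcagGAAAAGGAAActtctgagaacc
Gbp2: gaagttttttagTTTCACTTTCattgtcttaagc
The stretches lie at chr1:241527270-241527303 (plus strand) for Ifit3, chr2:243328620-243328685 (plus) for Ifi44l, chr16:18255071-18255110 (minus) for Bst2, chr1:205541781-205541814 (minus) for Ifitm3 and chr2:234005684-234005717 (plus) for Gbp2. In Bst2 the capitals are 2 overlapping matches, and in Ifi44l they are 2 separate ones. Among members measured in microglia, 13 of the 24 with a match were higher in CO, with a median log2 ratio of 0.02. Of the 13 without a match, 8 were higher, with a median of 0.03. The match therefore did not divide the members by direction.

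Libraries held 39494470 to 47322264 unique molecular identifiers (UMIs, the tags by which captured transcripts are counted), and 20258 NC and 17769 CO cells passed the filters, with medians of 4840 and 5661 UMIs. Within a group the libraries were as alike as portions of 1 suspension would be. The ratio of the variance between libraries to that from single cells averaged 0.995 in NC and 1.023 in CO microglia, where 1 is the value for portions of 1 suspension. Each group was therefore counted as 1 sample, although the series description speaks of 3 rats a group, and no p-value is given. Ratios are CO over NC with 95% exact intervals that cover counting error only. In each library a count of 4 was more frequent than a count of 3, by 1.03 to 1.04 times, so UMIs are not independent single counts and the intervals may be too narrow. Intervals from halved counts are given where they matter. A member is called higher or lower at 1.5-fold, and it was measured where both groups together held at least 30 UMIs. A member could therefore enter through the group in which it is high.

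Cells were assigned by marker genes, at least 3 of a class's own, and 10 classes had 30 cells or more in every library. Microglia-like cells were the most numerous, 7361 in NC and 8187 in CO. Their markers summed to 7796 CPM (counts scaled to 1000000 per class) in NC and 7945 in CO, and none of the 12 was at 0, with Csf1r at 1620 and 1983 and P2ry12 at 290.2 and 194. Siglech and Olfml3 were near 0 (0.26 and 1.86 CPM in NC). Endothelial-like cells numbered 3091 and 2239, with Cldn5 at 6622 and 6989 CPM. Just under the microglia threshold lay 323 cells and just over it 982.

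In control brain the members were most abundant in endothelial-like cells. Their summed level there was 6531 CPM, against 4584 in macrophage-like, 4166 in ependymal-like, 4149 in T- or NK-like, 3616 in mural-like and 2407 in microglia-like cells. Choroid plexus-like (1572), astrocyte-like (1024), oligodendrocyte-like (591) and neuroblast-like cells (361) had less. Endothelial-like cells had the highest NC level of 19 members, T- or NK-like cells of 11, macrophage-like cells of 8 and microglia-like cells of 2. In CO the counts were 17, 10, 10 and 1. For Ifit2, Xaf1, Sp100, Eif2ak2 and Tap2 (0.23 CPM) the endothelial-like NC interval overlapped that of the next class. The levels are UMI counts not divided by transcript length, so they are compared between classes and not between genes. The sums are led by members with most counts, and Ifi27 alone gave 2384 CPM of the endothelial-like and 1967 of the ependymal-like sum.

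Among the transcription factors, Irf8, which macrophage-lineage cells use for their identity, was highest in microglia-like cells at 383 CPM in NC, with macrophage-like cells next at 164. Irf1 did not separate macrophage-like (186) from endothelial-like cells (180.1), and the same held for Irf7, the amplifier of type I interferon production (69.0 and 67.4). Irf9 was highest in endothelial-like cells (24.3) and next in microglia-like cells (17.1). Stat2 at 61.6 CPM in astrocyte-like cells and 60.2 in macrophage-like cells had overlapping intervals.

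Of the antiviral effectors, Ifi27, a small mitochondrial membrane protein, reached 2384 CPM in endothelial-like and 1967 in ependymal-like cells and 151 in neuroblast-like cells, the lowest of the 10 classes. Bst2 (tetherin), which holds budding virus particles at the membrane, stood at 906 CPM in macrophage-like and 819 in endothelial-like cells. Ifitm3 and Ifitm2, which block virus entry, were highest in mural-like cells at 1106 and 630 CPM. Ifi27l2b was a gene of T- or NK-like cells (1389 CPM, with macrophage-like cells next at 389). Oasl stood at 304 CPM in macrophage-like cells and at 23.9 in microglia-like cells, the next class. Isg15, the ubiquitin-like protein attached to other proteins, was highest in endothelial-like cells (142), and so were Ifit2 (197), Ifit3 (75.4) and Mx2 (140.1). Ifit2 did not separate endothelial-like from macrophage-like cells (173).

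The sensors of foreign nucleic acid reached at most 42.3 CPM in any NC class. Zbp1, a sensor of Z-form nucleic acid, was at 36.3 CPM in T- or NK-like cells and at 2.33 in microglia-like cells, the next class. Dhx58 was highest in ependymal-like cells (42.3) and next in endothelial-like cells (25.6), while Ddx58 (RIG-I) and Ifih1 (MDA5) had overlapping intervals in their leading classes. Among the ubiquitin-like and ADP-ribose regulators, Usp18, the protease that removes Isg15 and dampens receptor signalling, was highest in endothelial-like cells (113), as were Herc6 (194) and Trim25 (121). Parp12 was the other member with its highest level in microglia-like cells (40.7). Of the antigen processing genes, the immunoproteasome subunit Psmb9 was at 231 CPM in T- or NK-like and 203 in ependymal-like cells, with overlapping intervals. The peptide transporter Tap1 was highest in T- or NK-like cells (84.5), and its partner Tap2 was near 0, with 3 UMIs in NC and 0 in CO microglia.

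**Figure D1:**
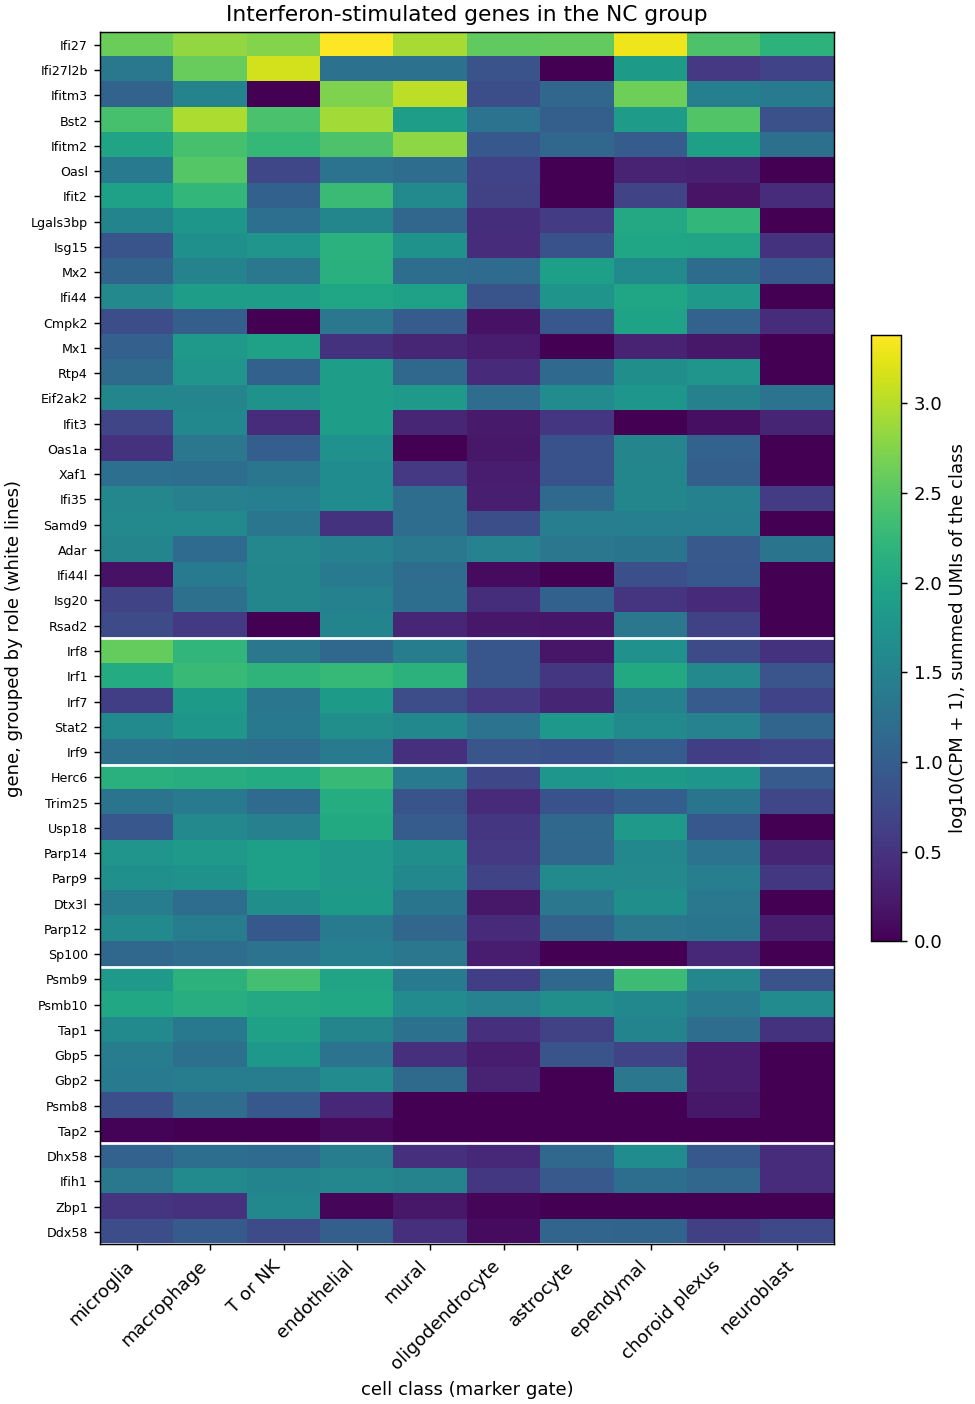
Level of each of the 48 members in each cell class of the NC group, as log10 of CPM plus 1, with white lines between role groups. Endothelial-like cells are bright across most antiviral effectors, Irf8 is brightest in microglia-like cells (383 CPM), and oligodendrocyte-like and neuroblast-like cells are dark for most members.

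In microglia-like cells most members stayed within 1.5-fold, and those past it were Ifit2, Ifit3 and Ifi44l. Of 47 members measured, 26 were higher in CO and 21 lower, with a median log2 ratio of 0.03 against 0.00 over all 12184 genes measured. A rescaling moved that median across 0 (−0.04 with total counts), so it has no direction. Past 1.5-fold, 3 members were higher (8.13% of all genes were) and 0 were lower (10.5% of all genes were). In 13 members all 3 CO libraries lay above all NC libraries (24.1% of all genes) and in 8 they lay below (23.3% of all genes). As shares of the members these are 13 and 8 of 47, and the other 26 overlapped.

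Ifit2 was the abundant gene among those that rose. Its protein binds RNA and is known to restrict translation. The NC libraries had 102, 76.4 and 76.0 CPM and the CO libraries 174, 164 and 164. All CO values were above all NC values, and the first NC library was the highest of its group. The group levels were 84.5 and 167 CPM, a 1.98-fold difference (log2 0.98, interval 0.93 to 1.04, or 0.90 to 1.07 with halved counts). After every cell was thinned to 1000 UMIs, 4.32% (3.86 to 4.83) of NC and 7.95% (7.36 to 8.57) of CO microglia-like cells held an Ifit2 UMI. Unthinned shares were 10.5% and 20.5%. In oligodendrocyte-like cells, where the gene is low, the thinned shares were 0.328% and 0.228%. The UMIs were not spread evenly over cells. The 1% of cells with most Ifit2 held 47.4% of its NC and 36.6% of its CO UMIs, and single cells reached 100 and 160 UMIs.

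Ifit3, the partner of Ifit2 in the same protein complex, stood at 4.78, 4.71 and 3.03 CPM in the NC libraries and at 10.6, 9.82 and 8.53 in the CO libraries. The groups did not overlap, and the CO level was 2.33-fold higher (log2 1.22, 0.96 to 1.49). Ifi44l, whose product is known for dampening antiviral responses, rested on 17 and 54 UMIs (0.33, 0.24 and 0.74 CPM in NC, 1.64, 0.40 and 1.25 in CO). Its ratio was 1.33 (0.52 to 2.21), and here the second CO library fell inside the NC range. With cells of 2 gates kept it was at 0.73. Ifit1bl is not a member and was looked up after the values of Ifit2 and Ifit3 were known. It had 6 UMIs in NC and 64 in CO microglia. Other interferon-induced genes outside the members were looked up with it and did not share 1 direction. Gbp7 was at 0.59 and Oasl2 at 0.47, Cxcl10 at 0.02 and Oas1k at −0.03, Ifi47 at −0.39 and Oas2 at −1.34 on 36 and 18 UMIs.

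The largest differences in the other direction stayed under 1.5-fold. Bst2 had 240, 248 and 245 CPM in NC and 193, 184 and 184 in CO, a log2 ratio of −0.38 (−0.43 to −0.34) with no overlap between groups. Ifitm3 was at 13.7, 9.19 and 10.1 CPM in NC and at 9.12, 6.01 and 7.40 in CO (−0.54, −0.74 to −0.33), where the highest CO and the lowest NC library nearly met. Parp12, an ADP-ribosyltransferase that acts on RNA viruses, was at −0.38 (−0.48 to −0.27) with the CO libraries below. Samd9 (−0.29) and Ifi44 (−0.24) also had every CO library below NC. So Ifi44 and Ifi44l, neighbours by name, had ratios of opposite sign.

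By role, 15 of 24 antiviral effectors were higher in CO (median 0.14), 4 of 8 ubiquitin-like and ADP-ribose regulators (median −0.04), 2 of 5 transcription factors (0.00), 2 of 4 sensors (−0.05) and 3 of 6 antigen processing and guanylate-binding genes (0.01). Several members with high counts had narrow intervals near 0, although the abundant Ifit2 (0.98) and Bst2 (−0.38) did not lie there. Ifi27 went from 421 to 454 CPM (0.11), Irf1 from 119 to 126 (0.09), Psmb10 from 103 to 101 (−0.02), Herc6 from 140.1 to 124 (−0.18) and Irf8 from 383 to 344 (−0.15). Ifitm2 (0.21), Psmb9 (0.11) and Parp14 (0.21) had every CO library above NC. Isg15, often read as the standard marker of the response, was at 5.60, 6.95 and 7.32 CPM in NC and at 6.87, 10.2 and 9.54 in CO (0.41, 0.18 to 0.64), with overlapping libraries. The canonical targets Mx1 (0.16), Oas1a (−0.04), Irf7 (−0.20) and Usp18 (−0.31) likewise did not reach 1.5-fold. Among the sensors Ifih1 was at 0.00 (−0.13 to 0.13) and Ddx58 at 0.32 (0.06 to 0.57), with every CO library above NC for Ddx58.

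**Figure D2:**
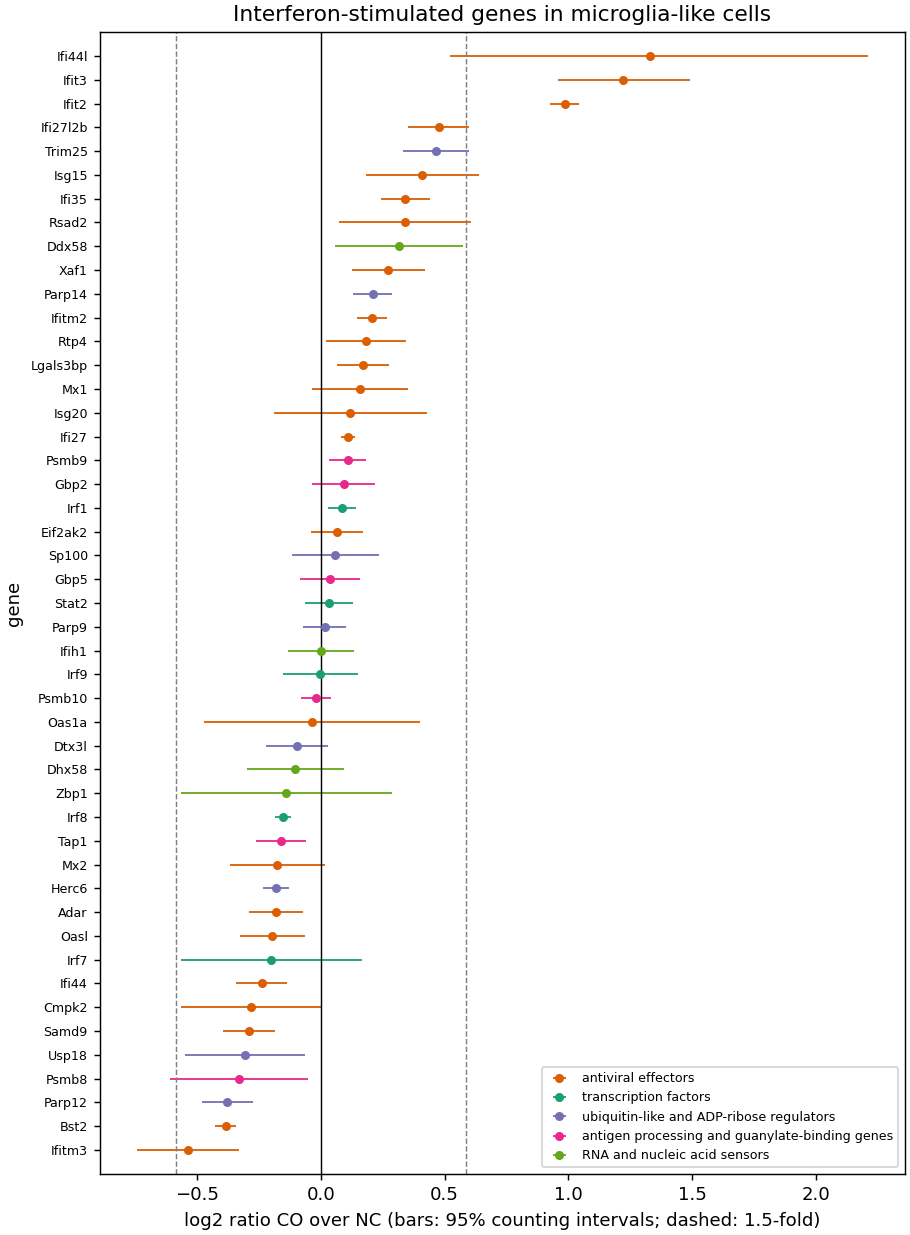
Log2 ratio of CO over NC for the 47 members measured in microglia-like cells, with 95% counting intervals, coloured by role, and dashed lines at 1.5-fold. Ifi44l (1.33), Ifit3 (1.22) and Ifit2 (0.98) lie to the right of the dashed line, and no gene lies to the left of the other.

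Markers of other cells in microglia-like cells were read beside these ratios. The 8 macrophage markers summed to 107 to 112 CPM over NC libraries and 96.2 to 97.3 over CO libraries, and the 11 endothelial markers to 189 to 208 and 179 to 196. None of either list was at 0. The 8 monocyte or dendritic markers were at 83.1 to 98.2 CPM in NC and 231 to 234 in CO. Choroid plexus markers summed to 1429 to 1613 CPM over NC and 625 to 661 over CO libraries. Oligodendrocyte markers summed to 1248 to 1303 and 1445 to 1470. Choroid plexus markers were also lower in CO in macrophage-like (1309 to 568 CPM), endothelial-like (1024 to 474) and oligodendrocyte-like cells (926 to 277). In ependymal-like cells they were at 906 and 877, with overlapping libraries. The part of these markers in the ratios of any class was not tested.

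The Ifit2 difference was present in each of the 5 clusters that held most microglia-like cells, which were found without the members among the clustering genes. In the cluster led by Il1b, Cxcl2 and Cxcl1 it went from 145 to 303 CPM, in that led by Ccl2 and Ccl4 from 90.5 to 161, in that led by Ints6l and Mcm5 from 92.5 to 141 and in that led by Leng8 from 29.1 to 91.3. The shallow cluster led by hemoglobin genes, with medians of 1038 and 1176 UMIs, had 4 and 20 UMIs. Bst2 was lower in CO in the first 4 (263 to 177, 274 to 197, 224 to 156 and 233 to 176 CPM) and higher in the shallow one (300.03 to 369). Irf1 went the other way between clusters, from 206 to 294 CPM in the Il1b cluster and from 99.7 to 75.9 in the Ints6l cluster.

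**Figure D3:**
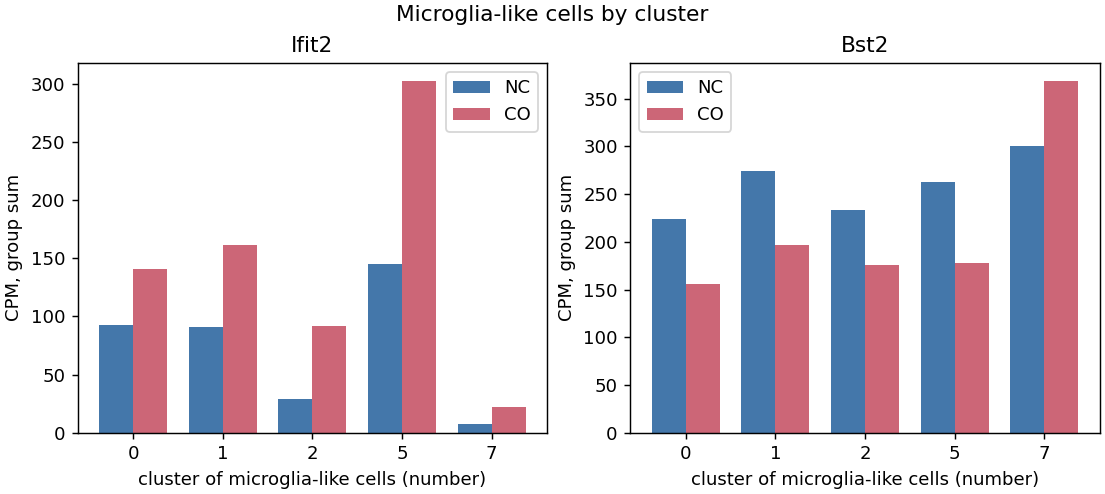
CPM of Ifit2 (left) and Bst2 (right) in 5 clusters of microglia-like cells, NC in blue and CO in red, with 1 bar for each group sum. The values are scaled by total counts only. Ifit2 is higher in CO in all 5 clusters (145 to 303 CPM in cluster 5), and Bst2 is lower in CO in clusters 0, 1, 2 and 5.

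Co-detection of members in single cells was read at 1 depth. Of microglia-like cells thinned to 1000 UMIs, 0.402% in NC (28 of 6966, exact interval 0.267 to 0.580) and 0.522% in CO (41 of 7859, 0.375 to 0.707) held UMIs of at least 3 of 17 core members. These intervals overlap. Endothelial-like cells had 9.77% (8.71 to 10.9) in NC and 7.45% (6.37 to 8.64) in CO, and macrophage-like cells 5.11% and 2.18%. Without thinning the microglia shares were 5.24% and 7.81%, at median depths of 4965 and 5879 UMIs.

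The upstream pathway was read from a separate list of 40 genes in the files, of which 39 were measured in microglia, 24 of them higher in CO (median 0.13). Past 1.5-fold, 3 were higher and 1 lower, beside the same 8.13% and 10.5% of all genes. The ligand gene Ifnb1 (interferon beta) had 582 UMIs in NC and 613 in CO. They came from 134 and 149 cells, 1.82% of microglia-like cells in both groups at their unequal depths, with up to 70 and 35 UMIs in 1 cell. Over libraries Ifnb1 was at 22.9, 14.9 and 8.65 CPM in NC and at 11.3, 9.68 and 16.8 in CO, so the groups overlapped. Of its UMIs, 282 of 582 and 439 of 613 were in the Il1b cluster. Ifnk, a keratinocyte type I interferon, had 5 and 33 UMIs (log2 2.39), and Ifng had none in either group, where a count of 0 allows up to 3 UMIs.

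The receptor gene Ifnar1 went from 75.4 to 102 CPM (0.44) and Ifnar2 from 53.7 to 55.3 (0.04). Ifngr1 was the most abundant receptor gene, from 1387 to 1826 CPM (0.40), while its partner Ifngr2 went from 164 to 144 (−0.18). Ifnlr1, the lambda interferon receptor chain, rose from 1.83 to 4.90 CPM (1.42). Of 5 Janus kinases and STATs measured, 0 passed 1.5-fold and 2 had every CO library above NC (24.1% of all genes did). Their ratios were all above 1, as were those of 50.3% of all genes, and the highest levels were those of Jak1 (296 to 376, 0.35) and Stat3 (136 to 146, 0.10). Of 5 feedback inhibitors, 0 passed 1.5-fold and 4 had every CO library above NC, beside the same 24.1% of all genes. Among the 4 were Ptpn6 (140.5 to 164, 0.22), Pias1 (120.01 to 179, 0.58) and Socs1 (0.41). The list for the induction of interferon also held Irf2, a repressor that competes with Irf1. Irf2 rose from 210, 220.0 and 218 CPM in NC to 399, 417 and 409 in CO (0.92, 0.88 at the lower bound). The adaptor Traf3 fell from 52.9 to 30.7 CPM (−0.78). The RNA receptor gene Tlr7 went from 210 to 277 CPM (0.40) and Tlr3 from 147 to 112 (−0.39). For antigen presentation, B2m went from 5373 to 6589 CPM (0.29) and the chaperone Calr from 1188 to 923 (−0.37).

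In endothelial-like cells Ifit3 was again higher in CO, joined by Mx1, while Mx2 and several others were lower. Of 46 members measured, 19 were higher (median −0.06, with −0.01 for all genes), 2 past 1.5-fold up (13.1% of all genes) and 9 down (14.1% of all genes). Ifit3 stood at 79.1, 71.7 and 75.2 CPM in NC and at 161, 185 and 222 in CO, a log2 ratio of 1.33 (1.23 to 1.42). Thinned to 1000 UMIs, 5.65% of NC and 13.2% of CO endothelial-like cells held an Ifit3 UMI. Ifit2 went from 197 to 269 CPM (0.45, 0.38 to 0.51) and was under 1.5-fold, with the libraries apart.

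Mx1, a GTPase that traps viral nucleocapsids, had few positive cells and the highest endothelial ratio. It stood at 2.05, 1.32 and 2.80 CPM in NC and at 22.2, 25.3 and 20.6 in CO (log2 3.44, 2.94 to 3.97, or 2.73 to 4.22 with halved counts). The 36 NC UMIs came from 17 cells of 3091 and the 352 CO UMIs from 17 cells of 2239. An Mx1-positive cell thus held 2.12 UMIs on average in NC and 20.7 in CO, with up to 4 and 76 in 1 cell. With cells of 2 gates kept the ratio was 2.69. Mx2 went the other way, from 137, 146 and 139 CPM to 82.5, 86.2 and 93.3 (−0.68, −0.78 to −0.59). It was found in 1005 and 601 cells. Lower too were Ifi44l (23.9 to 14.5 CPM, −0.72), Irf8 (12.9 to 7.26, −0.83) and Ifi27l2b (17.7 to 9.26, −0.93). The last 2 fell under 1.5-fold after thinning (−0.42 and −0.14), and Mx2 did so too (−0.47). Ifi27, Bst2 and Ifitm3, the endothelial members with most counts, had ratios of −0.07, −0.05 and 0.58. Mural markers summed to 441 CPM in NC and 796 in CO endothelial-like cells, and their part in these ratios was not tested.

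**Figure D4:**
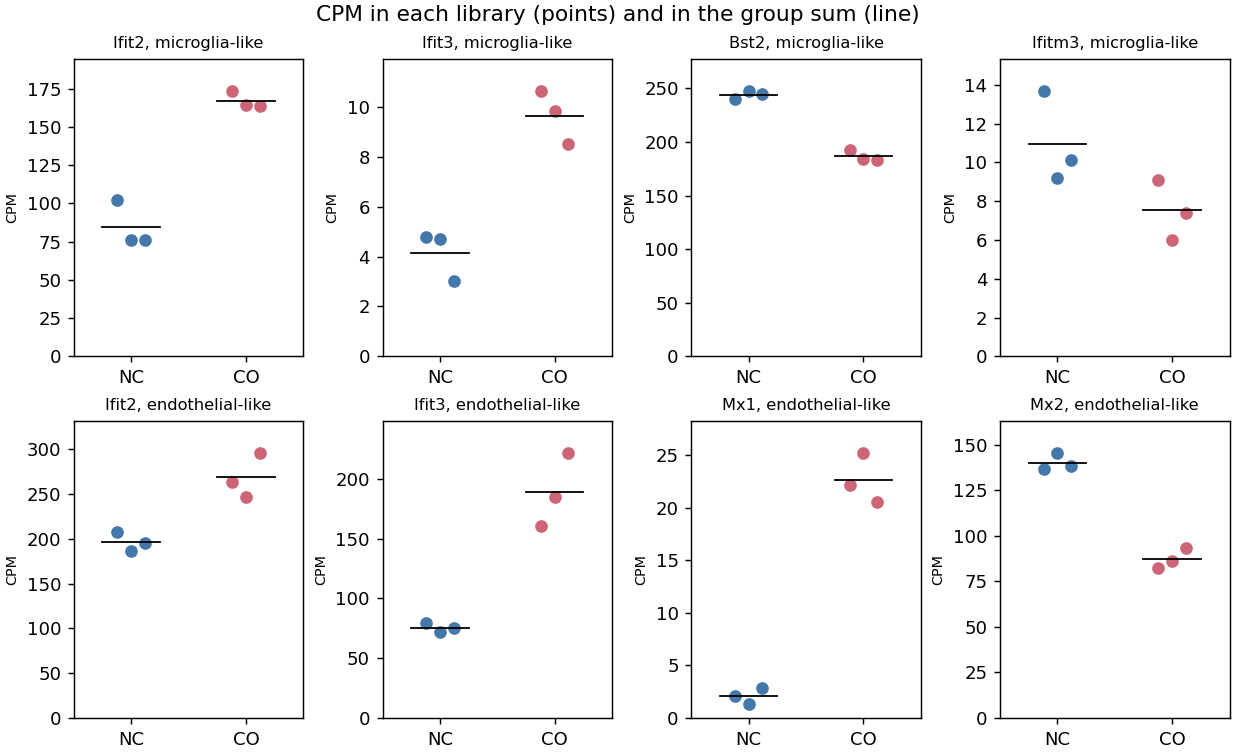
CPM of 4 members in microglia-like cells (upper row) and 4 in endothelial-like cells (lower row), 1 point per library and a line at the group sum, with axes from 0. Ifit2, Ifit3 and endothelial Mx1 are higher in all 3 CO libraries, while Bst2 and Mx2 are lower in all 3.

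In macrophage-like cells 15 of 44 members were higher (median −0.29), with 5 past 1.5-fold up (16.7% of all genes) and 16 down (18.9% of all genes). Usp18 had 56 UMIs in NC and 3 in CO (−4.08, −6.40 to −2.46) and Gbp2, a guanylate-binding protein, 39 and 2 (−4.14, −7.24 to −2.19). Irf7 went from 69.0 to 20.9 CPM (−1.72) and Isg20, a ribonuclease, from 16.9 to 5.24 (−1.69). In these 4 genes the CO libraries were all below NC, as in 1001 of all 7207 genes measured in the class. Usp18 was at −1.78 with Leiden clusters, Gbp2 at −2.98 with cells of 2 gates kept and Irf7 at −1.10 with the stricter second gate, an alternative chosen after seeing the data. Ifih1 was higher at 1.31, from 31.1, 52.1 and 32.8 CPM to 146, 46.0 and 102, and the second CO library lay within NC. Ifi35 (0.80), Ddx58 (0.88) and Xaf1 (0.71) also passed 1.5-fold with overlapping libraries. With Leiden clusters in place of marker gates Ifih1 and Ddx58 were both at 0.39 and Ifi35 at 0.43, and Xaf1 was at 0.43 without the third CO library. Bst2 (906 to 880.4 CPM), Ifi27 (677 to 536) and Ifi27l2b (389 to 256) had the most counts. Neutrophil markers in these cells summed to 12.8 to 472 CPM over NC libraries and 2.39 to 11.4 over CO libraries, and microglia markers to 895 to 1036 and 1067 to 1228 CPM, with 3 and 4 of 12 at 0. Their part was not tested.

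T- or NK-like cells, 206 and 123, had 11 of 32 members higher (median −0.33), 3 past 1.5-fold up (19.5% of all genes) and 10 down (21.8% of all genes). Parp9, which works with Dtx3l in ADP-ribose signalling, went from 78.5 to 20.7 CPM (−1.92), Usp18 from 34 to 4 UMIs (−2.56), Ifih1 from 38 to 11 UMIs (−1.26) and Ifitm2 from 179 to 77.9 CPM (−1.20). Usp18 was at −1.27 with cells of 2 gates kept. Gbp5 (1.11) and Ifi35 (1.04) were higher. Irf8 had 32.9, 14.2 and 18.7 CPM in NC and 173, 189 and 80.2 in CO (2.77, 2.13 to 3.45). The class held T and NK cells together, and its own markers shifted between groups. Cd3e went from 530 to 309 CPM and Cd3d from 588 to 318, while Nkg7 went from 210 to 650, Gzma from 184 to 802 and Klrd1 from 193 to 481. Microglia markers in these cells summed to 44.4 to 74.8 CPM over NC and 40.7 to 137 over CO libraries, with 2 and 4 of 12 at 0, and their part was not tested. Ifi27l2b (1389 to 959 CPM), Ifi27 (568 to 419) and Bst2 (255 to 138) had the highest levels.

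Mural-like cells had 11 of 30 members higher (median −0.19, or 0.09 without the third NC library), 2 past 1.5-fold up (15.6% of all genes) and 10 down (15.1% of all genes). Ifi35 was higher (1.56, or 0.50 with cells of 2 gates kept) and so was Lgals3bp (0.80, or 0.08 without the first CO library). Irf8 (38 and 4 UMIs, −3.28), Herc6 (−1.74), Dtx3l (−1.61) and Ifi27l2b (−1.61) were lower, each on fewer than 40 NC UMIs. With cells of 2 gates kept Dtx3l was at 0.16. Herc6 was at −0.88 and Irf8 at −2.17 with those cells kept. In NC the 38 Irf8 UMIs were in 8 cells. Macrophage markers in mural-like cells summed to 11.0 to 64.4 CPM over NC and 0 to 8.35 over CO libraries, with 3 and 6 of 8 at 0, and microglia markers to 169 to 233 and 98.3 to 245, with 2 of 12 at 0 in both. Their part was not tested. Ifitm3 (1106 to 1205 CPM), Ifi27 (866 to 751) and Ifitm2 (630 to 553) led in level and stayed within 1.5-fold.

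In oligodendrocyte-like cells the members were low, and 14 of 43 were higher (median −0.32), 4 past 1.5-fold up (8.38% of all genes) and 17 down (11.0% of all genes). The class held 38067279 UMIs in NC and 15502218 in CO, and members with few CO UMIs reached the minimum through NC. Oasl had 142 UMIs in 14 NC cells and 0 in CO, and 40 of the 142 came from 1 cell. It was 19.4-fold lower with the 0 set to a floor of 3 counts over the group. The upper bound of its log2 interval was −3.96, or −2.94 with halved counts. Lgals3bp (66 and 3 UMIs, −3.17), Gbp5 (32 and 2, −2.71) and Dhx58 (54 and 4, −2.47) were lower. With Leiden clusters Lgals3bp was at −0.65 and Oasl at −2.31, and with cells of 2 gates kept Gbp5 was at −1.30. Dhx58 was at −1.85 without the first CO library. Ifit3 (28 and 98 UMIs, 3.09), Ddx58 (9 and 28, 2.92) and Dtx3l (1.77) were higher, and 1 CO cell held 44 of the Ifit3 UMIs. With Leiden clusters Ifit3 was at 1.79 and Dtx3l at 1.13, and without its top cells Ddx58 was at 2.29. Mx2 went from 14.1 to 25.4 CPM (0.85). Ifi27 (360 to 395 CPM), Psmb10 (30.4 to 38.5) and Adar (30.2 to 26.2) had most counts. Microglia markers summed to 227 to 243 CPM over NC and 141 to 185 over CO libraries, and endothelial markers to 130 to 167 and 36.4 to 56.1. No microglia or endothelial marker was at 0, and their part was not tested.

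Astrocyte-like cells were the class in which most members were higher, 26 of 32 (median 0.42, with 0.01 for all genes), 14 past 1.5-fold up (17.0% of all genes) and 2 down (16.5% of all genes). The genes rested on few counts. Those with the largest ratios upward reached the minimum through their CO UMIs, and the class held 1636668 UMIs in NC and 2269541 in CO. Rsad2 (viperin), an enzyme that makes a chain-ending nucleotide, had 1 UMI in NC and 39 in 19 cells in CO (4.85, 2.29 to 10.2). Mx1 had 0 and 48 UMIs, the latter from 7 CO cells, and was 11.8-fold higher with the 0 set to the floor of 3. The lower bound of its log2 interval was 3.21, or 2.15 with halved counts. Irf1 (4 and 40 UMIs, 2.89, but 0.04 with Leiden clusters), Lgals3bp (5 and 42, 2.63) and Tap1 (6 and 44, 2.44) followed. Rsad2 was at 2.75 without the second NC library and Lgals3bp at 1.54 with cells of 2 gates kept. Mx1 was at 2.93 without the first NC library, where its floor is higher. Bst2 went from 5.06, 10.3 and 13.9 CPM to 62.8, 28.4 and 36.3 (2.10), with the groups apart. Ddx58 (−0.78) and Isg20 (−0.62) had intervals across 0, and both were under 1.5-fold with Leiden clusters (−0.26 and −0.39). Ifi27 (366 to 495 CPM), Mx2 (80.3 to 89.6) and Stat2 (61.6 to 47.3) had most counts. Macrophage markers summed to 3.38 to 15.6 CPM over NC and 3.88 to 82.2 over CO libraries, with 5 and 2 of 8 at 0, and microglia markers to 154 to 240 and 163 to 244, with 6 and 3 of 12 at 0. The CO cells were shallower, with medians of 3281 UMIs in NC and 1872 in CO, and the part of depth and markers was not tested.

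Ependymal-like cells, 157 and 187, went the other way, with 7 of 35 members higher (median −0.79, 0.02 for all genes), 5 past 1.5-fold up (17.1% of all genes) and 22 down (15.6% of all genes). Of 4 transcription factors measured, Irf1 (−0.81) and Irf7 (−0.87) were past 1.5-fold lower, and Irf8 (−0.20) and Stat2 (−0.25) had intervals across 0. The sensor Ifih1 was at −0.63, also with an interval across 0. Isg15 went from 156, 54.3 and 78.9 CPM to 3.25, 43.8 and 8.26 (−2.41, −2.91 to −1.94). Dhx58 had 74 and 13 UMIs (−3.03), Parp12 36 and 7 (−2.89), Samd9 48 and 10 (−2.79) and Oas1a 58 and 16 (−2.38). Ifi27l2b was at −3.35, and 74 of its 121 NC UMIs were in 1 cell (−2.38 without the top cells). Parp12 was at −2.23 without the first CO library. Ifi27 had the narrowest interval, from 1966, 1941 and 1989 CPM to 1070.1, 1074 and 1084 (−0.87, −0.94 to −0.80). Against this, Gbp2 went from 14.3, 34.9 and 16.4 CPM to 65.1, 91.0 and 93.6 (1.96, 1.45 to 2.51), and Trim25 (1.31), Ifitm2 (0.82) and Psmb10 (0.76) were higher, the last 2 only at 0.42 and 0.53 without the second NC library. Ifitm3 went from 431 to 688 CPM (0.67), and Psmb9 from 203 to 191 (−0.09). Endothelial markers in these cells summed to 93.7 to 131 CPM over NC and 397 to 551 over CO libraries, with 2 and 0 of 11 at 0, and their part was not tested.

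Choroid plexus-like cells had 12 of 39 members higher (median −0.37), 3 past 1.5-fold up (13.4% of all genes) and 14 down (15.6% of all genes). Isg15 went from 132, 64.5 and 77.1 CPM to 18.8, 8.78 and 18.4 (−2.54, −2.79 to −2.29), and 130 of its 1292 NC UMIs were in 1 cell. Usp18 (−2.26), Dhx58 (−1.72) and Ifitm3 (−1.69) were lower, with the CO libraries below NC in each. The same held for 2072 of all 10620 genes measured in the class. Ifi27l2b (1.99), Rsad2 (1.78, or 0.52 without the third CO library) and Isg20 (1.46) were higher. Bst2 (290 to 246 CPM), Ifi27 (271 to 223) and Lgals3bp (172 to 133) had most counts. Oligodendrocyte markers in these cells summed to 485 to 881 CPM over NC and 173 to 193 over CO libraries, endothelial markers to 157 to 167 and 209 to 288, and oligodendrocyte precursor markers to 75.6 to 85.5 and 176 to 230. Of these lists only the last had markers at 0, 1 and 2 of 6. The median cell held 39756 UMIs in NC and 7626 in CO, and the part of that gap and of these markers was not tested.

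Neuroblast-like cells had 13 of 21 members higher (median 0.19), 6 past 1.5-fold up (15.7% of all genes) and 3 down (8.55% of all genes), nearly all on overlapping libraries. The class held 2357191 UMIs in NC and 7779265 in CO, and members with few NC UMIs reached the minimum through CO. Irf8 (5 and 96 UMIs, 2.56), Ifit2 (4 and 59, 2.18), Tap1 (5 and 41, 1.33) and Bst2 (14 and 111, 1.28) were higher. In the last, 33 of the CO UMIs came from 1 cell, and without the third CO library it was at 0.31. With cells of 2 gates kept Tap1 was at 0.44 and Irf8 at 0.97, and Ifit2 was at 1.56 without the second CO library. Ifitm3 (−1.68, but 0.43 with Leiden clusters), Ifitm2 (−1.36) and Trim25 (−0.71) were lower. Without the 1 NC and the 1 CO cell with most Trim25 UMIs its ratio was 1.46. Ifi27 (151 to 193 CPM) and Psmb10 (42.2 to 48.7) led in level, with Ifitm3 next in NC (24.0). Microglia markers summed to 147 to 176 CPM over NC and 195 to 257 over CO libraries, and macrophage markers to 0 to 4.53 and 23.1 to 28.3, with 6 and 0 of 8 at 0. Their part was not tested.

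**Figure D5:**
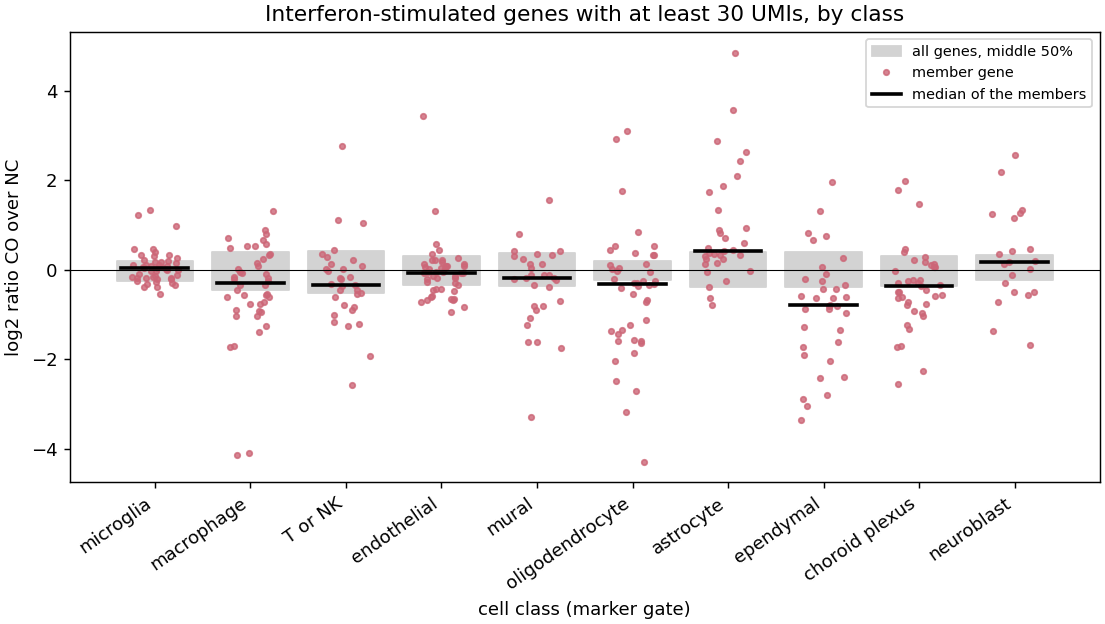
Log2 ratio of CO over NC for every measured member in each class (red points), their median (black line) and the middle 50% of all genes (grey). The member median is highest in astrocyte-like (0.42) and lowest in ependymal-like cells (−0.79), and microglia-like and endothelial-like cells have the narrowest spread.

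Across classes no member moved past 1.5-fold in 1 direction everywhere. Ifi35 passed it upward in 4 of 10 classes and downward in 1, and was higher in 8. Ifit3 passed it upward in 3 of 4 and Ifit2 in 2 of 6 classes, with Ifit3 lower in the fourth. Irf7, the factor that amplifies the type I response, was lower past 1.5-fold in 5 of 8 classes and higher past it in none. The same held for Oas1a in 4 of 6, Dhx58 in 4 of 8, and Ifi44 and Usp18 in 4 of 9. Ifi27l2b was lower in 5 of 9 and higher in 1. Over all genes, 8.55% to 21.8% were lower past 1.5-fold in a class and 8.13% to 19.5% higher. All classes of a group come from the same libraries, so these counts are not independent of each other. Of members past 1.5-fold, the interval left out 0 in 3 of 3 in microglia-like, 16 of 21 in macrophage-like, 11 of 13 in T- or NK-like, 11 of 11 in endothelial-like and 10 of 12 in mural-like cells. With halved counts it did so in 3, 12, 9, 11 and 5. In oligodendrocyte-like cells it did so in 19 of 21, in astrocyte-like cells in 11 of 16, in ependymal-like cells in 25 of 27, in choroid plexus-like cells in 17 of 17 and in neuroblast-like cells in 5 of 9. With halved counts these were 17, 9, 21, 17 and 5.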

How the data were processed

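The members and lists were chosen with earlier results of these data known. What the authors deposited is a matrix of raw counts (UMIs) for each library, without any scaling. Reads were processed with Cell Ranger (version not given in the sources used here) against Rnor_6.0, per the submitters' processing notes. Barcodes under 500 UMIs or 200 genes were dropped. A cell entered a class with 3 or more of its markers and a marker score of at least 0.2 of the class reference, taken as the 90th percentile, and cells passing 2 gates were left out, which stands in for a doublet caller. Within each class the UMIs of a group were added up and scaled by TMM (edgeR 4.0.16, R 4.3.3) to CPM. A gene entered with 30 counts over both groups, and a count of 0 was set to a floor of 3. Intervals are exact binomial at 95% (scipy 1.17.1). With 1 sample per group there is no test. Alternatives were other scalings, minimums, thinning, Leiden clusters (leidenalg 0.10.2), single libraries left out, and edgeR or DESeq2 1.42.0 with libraries as replicates. Named in microglia were members past 1.5-fold, the 10 with the highest CPM and the highest of each role. Named in other classes were the 4 largest ratios each way past 1.5-fold and the 3 highest CPM. Named pathway genes were the 2 highest of each subgroup and those past 1.5-fold. Other names were added after their values were seen. On microglia counts simulated as independent (Poisson) draws, the true ratio lay inside the interval in 95.4% of 11965 genes left as they were. It did so in 96% of 50 genes raised 2-fold. UMIs in such draws are independent, so the simulation cannot show whether the intervals are too narrow for the real counts. Library depth is given in the text, and 1 barcode was shared between libraries. The library check used genes detected in 300 cells. Values of some genes are not reported here.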

Additional observations from a re-analysis of the deposited data

Results flagged for a closer look

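Members were looked up that differed by at least 2-fold in opposite directions in 2 classes, on at least 100 UMIs in each and with the CO libraries all on 1 side of the NC libraries. The difference between the classes was not tested. There were 3. Bst2 had a log2 ratio of 2.10 in astrocyte-like and −1.60 in oligodendrocyte-like cells. Irf8 had 2.77 in T- or NK-like and −1.12 in oligodendrocyte-like cells. Mx1 had 3.44 in endothelial-like and −1.40 in macrophage-like cells, where it went from 77.9, 60.4 and 58.4 CPM in NC to 26.3, 37.6 and 9.10 in CO. The endothelial value of Mx1 rested on 17 positive cells in each group, and 1 CO cell held 76 of the 352 CO UMIs.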

How the results depend on the processing

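Of the 204 summary values recomputed under alternatives, 174 stayed within the spread between libraries, their interval or 1.5 times the main count. The microglia median of 0.03 became −0.037 with total counts, −0.029 after thinning to 1000 UMIs and −0.0045 with cells of 2 gates kept, and ran from −0.0028 to 0.041 with single libraries left out. The 3 members higher in microglia stayed 3 in every leave-one-out. The count of lower members, 0, became 1 with total counts, 2 after thinning and 1 with a stricter second gate, and ran from 0 to 1 with a library left out. Ranges over left-out libraries for the other medians were −0.49 to −0.17 in T- or NK-like, −0.11 to −0.051 in endothelial-like, −0.30 to 0.095 in mural-like (0.095 without NC replicate 03), 0.32 to 0.75 in astrocyte-like, −0.89 to −0.60 in ependymal-like, −0.40 to −0.24 in macrophage-like, −0.58 to −0.12 in oligodendrocyte-like, −0.49 to −0.33 in choroid plexus-like and 0.21 to 0.34 in neuroblast-like cells. The endothelial median was −0.15 with total counts and −0.13 after thinning, and the macrophage median −0.067 after thinning, on 18 members. The ependymal median was −0.63 with no minimum, −0.62 with 100 counts, −0.52 after thinning (6 members), −0.49 by Leiden clusters and −0.64 with cells of 2 gates kept. The share of microglia-like cells with core members was 1.30% and 1.57% (NC and CO) after thinning to 2000 UMIs and 3.06% and 3.59% for 2 core members, where the definition itself is looser. Single genes were recomputed for all members measured in microglia and for at most 4 called members each way in other classes. An alternative was skipped where the gene fell under its minimum. Of these values 1497 stayed inside their main interval and 111 left it. Among the called members recomputed, signs turned for Dtx3l in mural-like cells (0.16 with cells of 2 gates kept) and Ifitm3 in neuroblast-like cells (0.43 by Leiden clusters). They also turned for Trim25 in neuroblast-like cells (1.46 without its top cells). The stricter second gate and the removal of top cells were chosen after seeing the data. The cause of these changes was not tested.

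With libraries as replicates, edgeR's quasi-likelihood test called 16 of 47 members in microglia at a Benjamini-Hochberg adjusted p of 0.05, 9 higher and 7 lower, beside 37.6% of all genes. With a replicate block it called 16 and DESeq2 called 14. Same-numbered libraries are not stated to share an animal, so the numbers are only names.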
